A study of Rattus norvegicus with 127 samples.

Results

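The experiment asked how the pelvic floor muscle of injured rats looked 7 days after an immediate injection of SKM, a hydrogel made from skeletal muscle extracellular matrix (ECM), set against an immediate injection of saline. It holds 8 SKM samples and 9 saline samples, chosen by the condition named in the labels, out of 127 samples in the series, and all 134 genes of the panel were compared. All 17 samples hold total RNA from the pubocaudalis, one of the pelvic floor muscles, of Sprague Dawley rats that had undergone a simulated birth injury (SBI), so both groups share the strain, the injury and an injection. Further groups serve only as a frame for these samples: immediate SKM and saline at day 3 (9 and 9 samples), delayed SKM and saline at day 7 (9 and 10 samples) and uninjured muscle (3 samples). Age, sex and the number of animals are not stated in the labels, and since the labels do not tie each sample to its own animal, the p-values rest on sample-to-sample spread that may be technical. RNA was counted on a custom nCounter panel, in which each RNA molecule is captured and read by a barcoded probe without amplification. The values are the authors' normalized signal on a linear scale, differences are given as log2(value + 1), SKM minus saline, with the standard error (SE), and every difference is also given or counted after each sample was centred on the median of its own panel, because no source describes the authors' scaling.

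Injured skeletal muscle is rebuilt by satellite cells, stem cells that lie under the sheath of each fibre and carry the transcription factor Pax7. Once activated they express Myf5 and Myod1, then Myog as they fuse, and the new fibres first make embryonic myosin, encoded by Myh3, before adult myosins replace it. Neutrophils and then macrophages clear the dead fibres, fibroblasts lay down provisional matrix, and vessels and neuromuscular junctions are re-formed around the new fibres. A matrix hydrogel is meant to act as a scaffold for these cells.

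No gene passed the test between SKM and saline at day 7. Limma, fitted over all groups of the series with Benjamini-Hochberg adjustment over the 134 genes, called 0 genes (0%) at an adjusted p under 0.05 on the deposited scale and 0 (0%) after centring. The smallest adjusted p was 0.344 on the deposited scale and 0.602 after centring. At an unadjusted p under 0.05 there were 7 genes, all lower in SKM (5.22%), and 0 higher, namely the integrin genes Itga1 and Itgb1, the matrix signal Ccn2, the muscle genes Myh3 and Myf5 and the vessel genes Angpt2 and Kdr. After centring, 3 of them stayed under 0.05 (2.24%), Itga1, Ccn2 and Myh3. There was no gene (0%) for which the SKM and saline samples did not overlap.

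The differences were mostly small and were mostly negative. Of the 134 differences 93 were negative and 41 positive, with a median of -0.13, and 83 were under 0.25 in size. After centring the signs were even, with 66 positive and 68 negative. Centring moves every difference by the same amount, the group difference in panel median given next. Near-even signs therefore follow largely from the arithmetic, since that amount is close to the median gene difference. The samples' panel median was itself lower in SKM, at 10.36 ± 0.07 (SD, n = 8), against 10.49 ± 0.12 in saline (SD, n = 9), a difference of -0.13 that an exact two-sided permutation test over 24310 arrangements gave p = 0.0132, and 0.0397 adjusted over the 3 sample measures tested. The mean log2 value of the panel in place of the median differed by -0.16 with an exact permutation p of 0.133. The shift of the panel median is as large as the median gene difference. The centred value of each gene leaves this shift out, and the cause of the shift was not tested.

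The precision of the comparison differed widely between genes. The median SE of a difference was 0.28, and the 95% interval lay within 1 log2 unit of 0 for 87 genes and within 0.5 for 37 genes. For 4 genes the interval was wider than 4 units, and 4 genes differed by more than 1 in size (Cxcr2, Myh3, Nos2 and Cxcl5).

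A few samples stood apart inside both groups. SKM replicate 7 and saline replicate 7 lay farthest from the other samples of their group (root mean square over genes of 2.05 log2 units each). Both had few counts, with recovered totals of 580205 and 769589, although the groups did not differ in total count (1253485 ± 385150 in SKM, n = 8, against 1214026 ± 255000 in saline, n = 9, SD; exact permutation p = 0.804). The number of probes at 0 counts averaged 1.12 ± 1.73 in SKM and 0.889 ± 1.97 in saline (SD, exact permutation p = 0.877).

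In these 2 samples the genes of muscle fibres were low and those of inflammation high. The 7 of 12 muscle fibre markers on the panel summed to 77830 in SKM replicate 7, with a range of 357000 to 1189000 in the other SKM samples, and to 91030 in saline replicate 7, with 291700 to 1141000 in the other saline samples. Nos2, the inducible nitric oxide synthase of activated macrophages, stood at 4591 in SKM replicate 7 and at 11980 in saline replicate 7, and the chemokine gene Cxcl1 at 144 and 1162 there. The 3 macrophage markers on the panel (Adgre1, Ccr2 and Arg1) summed to 18600 and 16700 in these samples, the highest of each group. In bulk RNA fewer cells of a type and less RNA per cell cannot be told apart.

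SKM replicates 1 and 2 stood at the opposite end. They lay closest to uninjured muscle of all 17 samples, with a median absolute difference over genes of 0.38 and 0.41 log2 units. Saline replicates 6 and 4 came next, at 0.45 and 0.53. Their muscle fibre markers were the highest of the SKM group (1189000 and 1134000), and their embryonic myosin was far below the rest (436 and 1790 for Myh3, against 17980 to 34720 in the other 6). Saline replicate 6 had the highest fibre markers of its group (1141000) with Myh3 at 37010. Saline replicate 4 had the next highest (961500), with the lowest Myh3 (6119) and Myog (1612) of the saline samples. Every marker list overlapped between the groups. Macrophage sums ran from 2047 to 18600 in SKM (median 4813) and from 1026 to 16700 in saline (median 2752), fibroblast sums (4 markers) from 304000 to 487300 (median 403360) and from 350200 to 710900 (median 483020), and endothelial sums (2 markers) from 1268 to 1844 (median 1399) and from 1294 to 2597 (median 1637). The satellite cell and myoblast sum (4 markers) ran from 2414 to 20010 in SKM (median 3453.5) and from 3553 to 6707 in saline (median 5061). The neutrophil sum (2 markers) ran from 9.83 to 337 (median 29.2) and from 7.91 to 1213 (median 42.3). The lymphocyte sum (3 markers) ran from 79.3 to 656 (median 197) and from 106 to 484 (median 284). Sums on the linear scale follow their highest members. In SKM replicates 1 and 2 Foxp3 gave 391 of 406.9 and 500.6 of 571.5 of the lymphocyte sum. The fibroblast sum was nearly all Col1a1, Col3a1 and Dcn, and the satellite cell and myoblast sum mostly Myog and Myod1. The neutrophil receptor gene Cxcr2 was at 0 counts in 4 of 8 SKM and 1 of 9 saline samples, which makes its values near 0 weak.

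**Figure D1:**
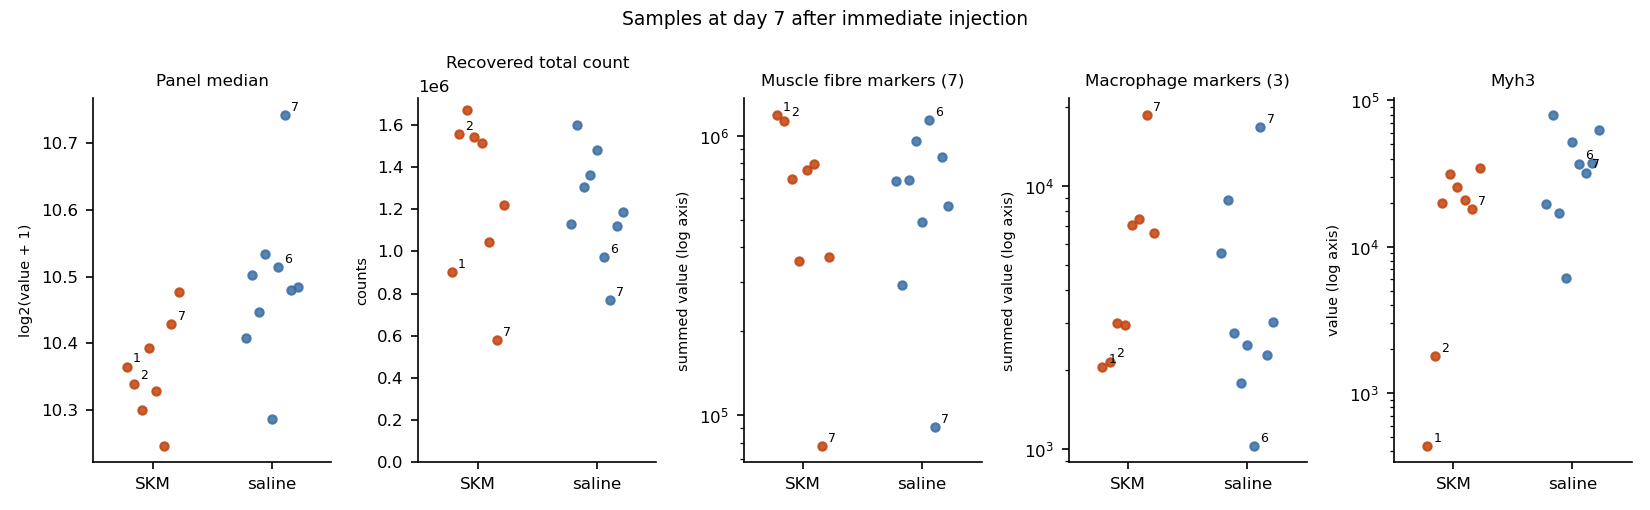
Panel median, recovered total count, summed muscle fibre and macrophage markers, and Myh3 in each sample at day 7 after immediate injection, with SKM (n = 8) left and saline (n = 9) right and replicate numbers beside the samples that stood apart. Replicate 7 of each group is lowest in fibre markers and highest in macrophage markers, and SKM replicates 1 and 2 are lowest in Myh3.

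Cell adhesion and matrix genes gave the smallest p-values. Itga1, the collagen-binding alpha 1 chain of integrins, ran from 514 to 732 in SKM samples (median 589), against 585 to 962 in saline samples (median 825). All 8 SKM samples lay below the saline median and 8 of 9 saline samples above the highest SKM sample, with saline replicate 1 the exception. The difference was -0.44 ± 0.14 (95% interval -0.73 to -0.16, unadjusted p = 0.00257, limma adjusted p = 0.344), and -0.31 ± 0.11 after centring. Itgb1, the shared beta 1 chain of these receptors, ran from 14327 to 17400 in SKM (median 15175), against 14486 to 22686 in saline (median 19170), a difference of -0.27 ± 0.10 (adjusted p = 0.387). All 8 SKM samples were below the saline median. After centring the difference of Itgb1 was -0.14 ± 0.09.

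Ccn2, the matricellular connective tissue growth factor, is made by fibroblasts under TGF-beta and mechanical strain. It ran from 2011 to 6968 in SKM (median 2800), against 2987 to 11280 in saline (median 5664), and 5 SKM samples were below the lowest saline sample. The difference was -0.86 ± 0.32 (adjusted p = 0.387), and -0.73 ± 0.31 after centring. When each sample was left out in turn it ran from -1.02 to -0.74. The name Ccn2 is uncertain, since the probe was matched on 2 values and came out as Pparg when the alphabetical order of the names was not used. The authors' deposited table gives Ccn2 a log2 fold change of -0.90. Their q for it, 0.32, stands under a heading that names SKM against SBI.

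The matrix protein genes Tnc and Thbs1 were spread widely within both groups. Tnc, tenascin C of provisional matrix, ran from 190 to 4280 in SKM (median 1606), against 1061 to 6562 in saline (median 2143), a difference of -0.88 ± 0.49 (adjusted p = 0.933), which was -0.48 without SKM replicate 1 and -1.12 without SKM replicate 7. Thbs1, thrombospondin 1, ran from 444 to 2700 (median 1508), against 1191 to 6519 in saline (median 2132), a difference of -0.79 ± 0.46 (adjusted p = 0.943). The 5 matrix protein genes were all lower in SKM with a median of -0.38, beside -0.13 over all genes tested, and 0 passed. After centring 4 of the 5 were lower with a median of -0.25. Col1a1 (-0.38 ± 0.37), Col3a1 (-0.31 ± 0.29) and Dcn, the small proteoglycan decorin (-0.03 ± 0.17), complete the list. Of the 13 matrix enzymes and inhibitors 11 were negative and 2 positive, with a median of -0.26 and 0 called, from Adam12, a metalloprotease of fusing myoblasts (-0.47 ± 0.37), to Mmp8 of neutrophils (0.24 ± 0.66). After centring 9 were negative and 4 positive with a median of -0.13. Without SKM replicate 1 Adam12 differed by -0.25. Of the 8 fibroblast and TGF-beta genes 7 were negative and 1 positive, with a median of -0.09 and 0 called, whereas after centring 2 were negative and 6 positive with a median of 0.04. Tgfb1 differed by -0.11 ± 0.28. In the 5 genes of the cytoskeleton and dystrophin complex, which hold both integrins, all were negative with a median of -0.14, beside 93 negative of 134 and -0.13 over all genes, and after centring 4 of 5 were negative with a median of -0.0097. Dmd, which encodes dystrophin, differed by -0.13 ± 0.25.

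**Figure D2:**
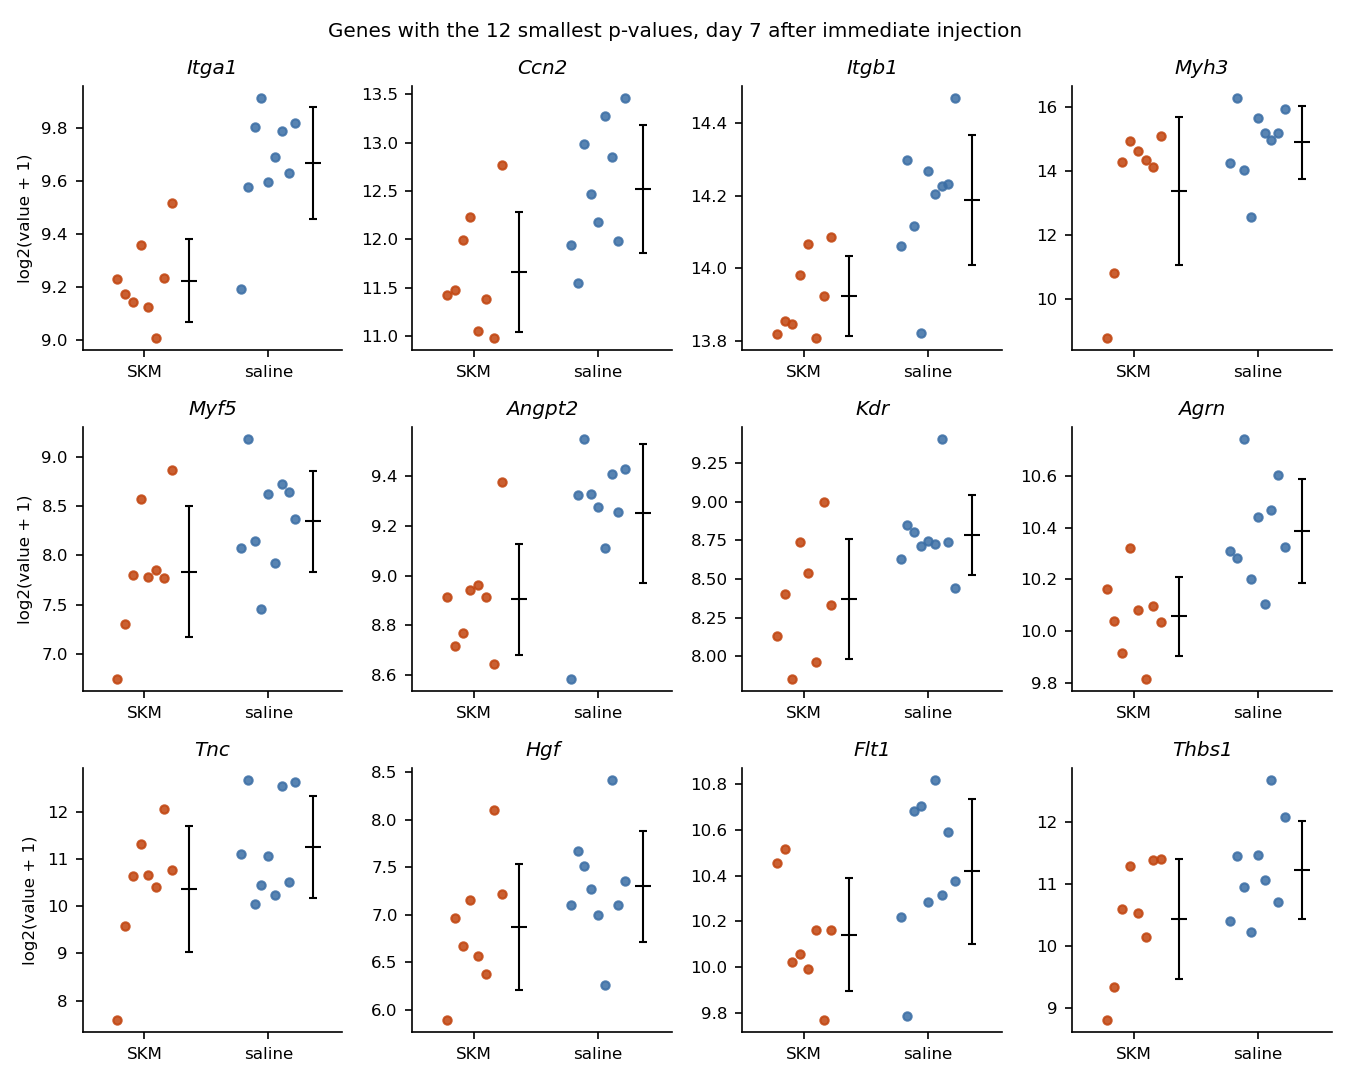
log2(value + 1) of the 12 genes with the smallest p-values in each SKM sample (left, n = 8) and saline sample (right, n = 9) at day 7 after immediate injection, with the mean and SD as a bar beside the points. The groups overlap in every gene, and for Itga1 8 of 9 saline samples lie above the highest SKM sample.

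Among the genes of new muscle formation, embryonic myosin differed most and varied most. Myh3 ran from 436 to 34723 in SKM samples (median 20337), against 6119 to 79715 in saline samples (median 37014). All 8 SKM samples lay below the saline median, and 5 saline samples above the highest SKM sample. The difference was -1.52 ± 0.63 (95% interval -2.77 to -0.27, adjusted p = 0.541), and -1.39 ± 0.63 after centring. The SD was 2.30 in SKM and 1.13 in saline. Without SKM replicate 1 the difference was -0.87 (adjusted p = 0.991), and with samples weighted by their own spread it was -0.83 (adjusted p = 0.483). SKM replicates 1 and 2 stood at 436 and 1790, and the rest of the SKM samples at 17980 to 34720. No fit left out SKM replicates 1 and 2 together, so the difference without them was not tested.

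Myf5, the early myogenic factor, ran from 106 to 466.4 in SKM (median 220), against 174 to 581 in saline (median 331), a difference of -0.51 ± 0.22 (adjusted p = 0.541). SKM replicates 1 and 2 were below the lowest saline sample, and without SKM replicate 1 the difference was -0.36. Pax7, the marker of satellite cells, ran from 100 to 238 (median 152), against 138 to 363 in saline (median 193), a difference of -0.43 ± 0.28 (adjusted p = 0.943). For both genes most samples of the groups lay in the same range.

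Myod1 and Myog had lower medians in SKM, but their mean differences were near 0. Myod1, which commits myoblasts, ran from 473 to 5159 in SKM (median 1026), against 508 to 1867 in saline (median 1255), and the difference was 0.03 ± 0.27 (adjusted p = 0.983). Myog, which drives differentiation, ran from 1126 to 14150 (median 2381), against 1612 to 4703 in saline (median 3562), a difference of -0.09 ± 0.28 (adjusted p = 0.977). SKM replicates 4 and 8 held the 2 highest values of both genes (2260 and 5159 for Myod1, 9855 and 14150 for Myog). Without SKM replicate 8 the difference was -0.27 for Myod1 and -0.40 for Myog. The Myog difference was 0.04 after centring, and with array weights it was -0.40, with -0.37 for Myod1. Of the 5 myogenic factors 2 were positive and 3 negative with a median of -0.09 and 0 called (3 positive with a median of 0.04 after centring), and Myf6 of mature fibres differed by 0.13 ± 0.25.

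Genes of the embryonic and slow fibre list all had lower means in SKM, 4 of 4 with a median difference of -0.45 and 0 called. Over all genes 93 of 134 were lower with a median of -0.13. After centring the 4 were still lower, with a median of -0.32. Beside Myh3 these are the slow myosin gene Myh7 (-0.55 ± 0.52), the slow troponin gene Tnnt1 (-0.35 ± 0.41) and Sln, the calcium pump regulator sarcolipin (-0.26 ± 0.42). The 4 genes did not move together. SKM replicates 1 and 2 held the lowest Myh3 of SKM (436 and 1790) but its highest Tnnt1 (18600 and 19790). Against uninjured muscle SKM was higher for Myh3 (4.90 ± 0.88) and Sln (3.18 ± 0.58) but not for Myh7 (-0.85 ± 0.73) and Tnnt1 (-0.58 ± 0.57). Growth factors of repair were split, 3 positive and 3 negative with a median of -0.07. Hgf, the factor that wakes satellite cells, ran from 58.1 to 274 in SKM (median 112), against 75.5 to 340.5 in saline (median 153), a difference of -0.43 ± 0.24 (adjusted p = 0.933). The heparin-binding factor gene Ptn differed by -0.37 ± 0.25, and Fst, which encodes the myostatin antagonist follistatin, by 0.21 ± 0.28.

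Adult fibre genes showed no common direction. Of the 10 adult contractile genes 5 were positive and 5 negative with a median of -0.03 and 0 called, from Actn2 of the Z disc (-0.29 ± 0.30) to the skeletal actin gene Acta1 (0.23 ± 0.40). Of the 12 genes of insulin, AKT and mTOR signalling 5 were positive and 7 negative with a median of -0.01, and after centring 9 were positive and 3 negative with a median of 0.12. This group held some of the narrowest values of the panel, with Akt1 at 0.06 ± 0.09, Mtor at 0.05 ± 0.13, Prkaa1 of the AMP-activated kinase at -0.13 ± 0.09 and Grb10, an adaptor that dampens insulin receptor signalling, at -0.25 ± 0.17. Akt2, the kinase of insulin-driven glucose uptake, was at 0.19 ± 0.15. Without SKM replicate 7 Akt2 was at 0.36 and Grb10 at -0.12, and without saline replicate 7 Akt2 was at 0.08. The 5 muscle breakdown genes had the highest median of the 16 lists, 0.16, with 3 positive and 2 negative and 0 called. The ubiquitin ligase genes Trim63 (0.33 ± 0.31) and Fbxo32 (0.25 ± 0.34) were positive, and Foxo3, a transcription factor that drives both, was at -0.17 ± 0.13.

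Vessel genes were lower in SKM in 6 of 7 cases, with a median of -0.20 and 0 called, beside 93 of 134 and -0.13 over all genes. After centring 5 of 7 were lower with a median of -0.08. Angpt2, which destabilises vessels for sprouting, ran from 399 to 663 in SKM (median 481), against 382 to 748 in saline (median 639), a difference of -0.35 ± 0.16 (adjusted p = 0.552). SKM replicate 8 was the highest of its group and saline replicate 1 the lowest sample of all. Kdr, the main receptor of VEGF on endothelium, ran from 230 to 511 (median 330), against 347 to 677 in saline (median 427), a difference of -0.41 ± 0.19 (adjusted p = 0.552), with 5 SKM samples below the lowest saline sample. Flt1, the second VEGF receptor, ran from 870 to 1463 (median 1106), against 883 to 1804 in saline (median 1327), a difference of -0.28 ± 0.15 (adjusted p = 0.933). The ligand gene Vegfb was the positive member at 0.07 ± 0.19. The 2 endothelial markers, Kdr and Tie1 (-0.17 ± 0.15), are members of this list, and the part of endothelial content in these values was not tested.

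The 5 neuromuscular junction genes all had lower means in SKM, with a median difference of -0.33 and 0 called, beside 93 of 134 and -0.13 over all genes. After centring 4 of 5 were lower with a median of -0.20. Agrn encodes agrin, a signal that clusters acetylcholine receptors, and ran from 899 to 1277 in SKM (median 1068), against 1099 to 1712 in saline (median 1283). In 6 of 8 SKM samples it was below the lowest saline sample, a difference of -0.33 ± 0.18 (adjusted p = 0.933). Nrg1, a growth factor of the junction, differed by -0.57 ± 0.36, and its receptor gene Erbb2 by -0.01 ± 0.31. Musk, the receptor kinase of agrin, differed by -0.40 ± 0.38 and App, the amyloid precursor protein gene, by -0.19 ± 0.13. Yet SKM replicates 4 and 8 held the highest values of both groups for Musk (624.4 and 766.4) and for Erbb2 (477.9 and 504.2). Saline samples reached 512.5 for Musk and 318.5 for Erbb2.

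Inflammatory genes gave no call. Of the 7 chemokine and receptor genes 6 were negative and 1 positive with a median of -0.21, and of the 5 pro-inflammatory cytokine genes 3 were negative and 2 positive with a median of -0.19. Over all genes 93 of 134 were negative with a median of -0.13. After centring 5 of the 7 were negative with a median of -0.08, and 3 of the 5 with a median of -0.06. Cxcr2 differed by -1.73 ± 1.03 with a 95% interval of -3.77 to 0.30, Nos2 by -1.44 ± 1.05, Il6 by -0.56 ± 0.57 (-0.14 without saline replicate 7) and Il1b, the inflammasome cytokine gene, by -0.19 ± 0.98. For Cxcr2 the difference was -1.03 without saline replicate 7 and -2.53 without SKM replicate 7, and for Nos2 -0.67 and -2.34. Of the 8 type 2 and regulatory genes 5 were positive and 3 negative with a median of 0.04. After centring all 8 were positive, beside 66 of 134 over all genes. The lowest of the 8 was at -0.11 before centring, so the shift common to all genes turned the 3 negative ones. Gata3, a transcription factor of type 2 lymphocytes, was at 0.70 ± 0.49 (adjusted p = 0.976), and Adgre1, which encodes the macrophage surface protein F4/80, at 0.65 ± 0.56. Gata3 differed by 0.15 without saline replicate 6, where it was at 0 counts. Of the 5 pattern receptor and NF-kappaB genes 4 were negative and 1 positive with a median of -0.13 (3 negative and 2 positive after centring), and Nfkb1 differed by -0.13 ± 0.18.

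**Figure D3:**
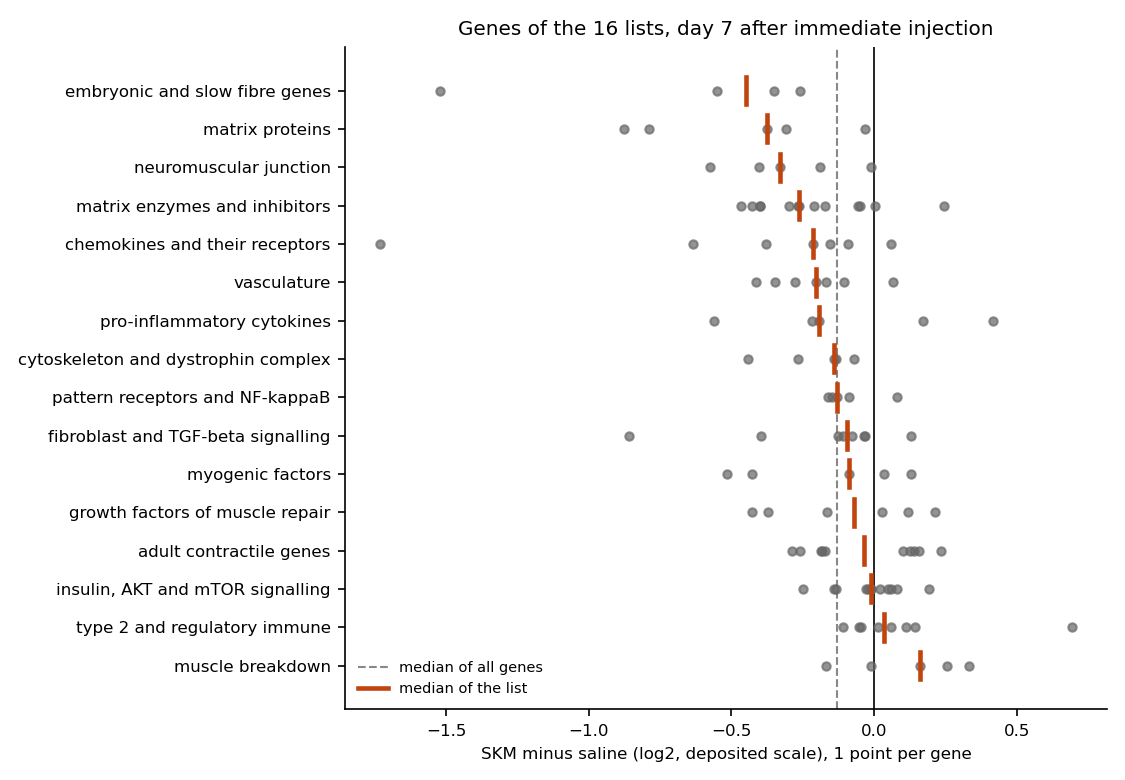
SKM minus saline on the deposited log2 scale for each gene of the 16 lists (grey points), with the median of the list as an orange bar and the median of all 134 genes (-0.13) as a dashed line. Medians run from -0.45 for embryonic and slow fibre genes to 0.16 for muscle breakdown genes, and no gene passed the adjusted threshold.

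Weights that count the samples by their own spread gave calls where the equal weights gave none. With array weights over all groups limma called 4 genes (2.99%), all lower in SKM, namely Itga1 (-0.46, adjusted p = 0.0115), Itgb1 (-0.27, 0.0329), Agrn (-0.44, 0.035) and Ccn2 (-0.89, 0.0492). The estimate of these weights stopped before its convergence tolerance, and the gene-by-gene method called 2 (1.49%), Itga1 and Itgb1. In a fit of the 2 groups only the weights called Itga1 and Agrn (1.49%), and on the centred values they called 0 (0%).

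**Figure D4:**
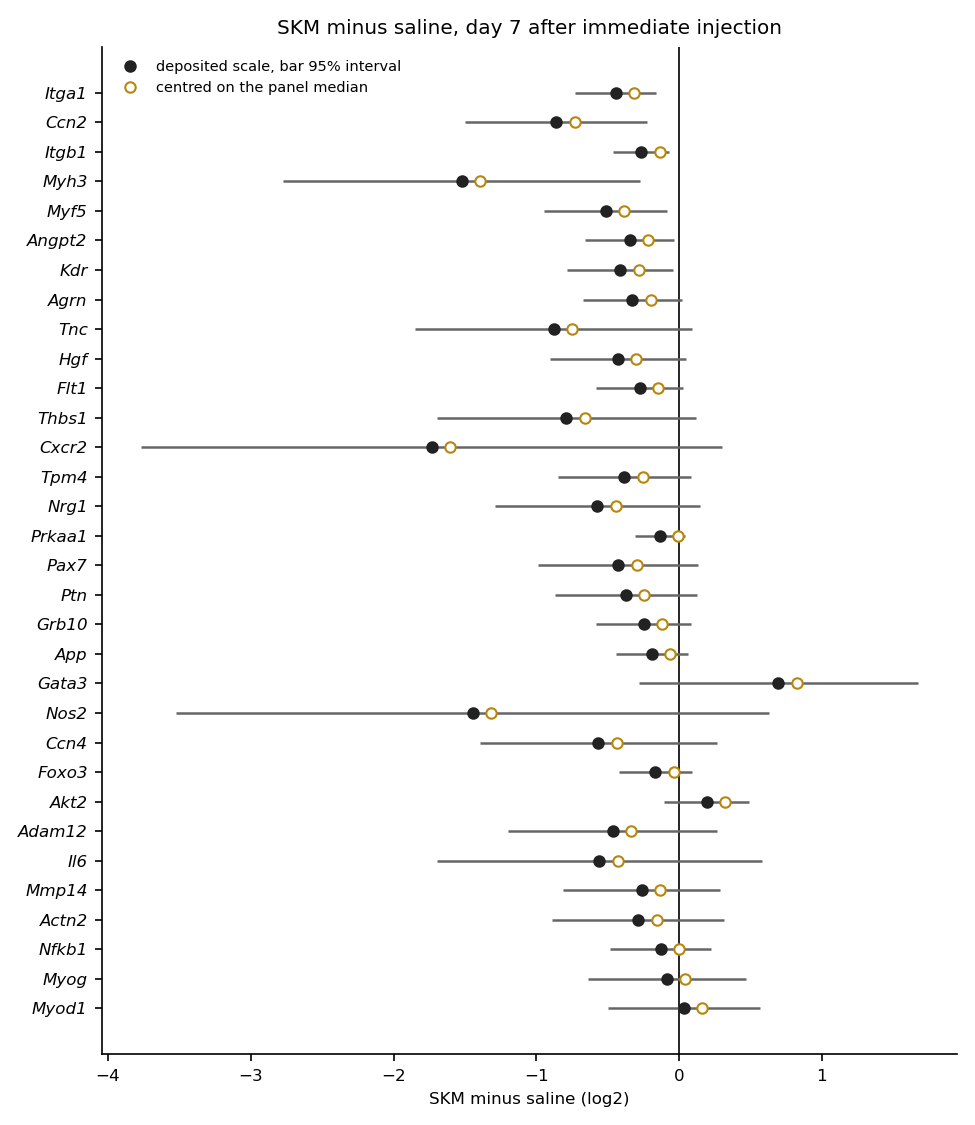
SKM minus saline (log2) for the 32 named genes at day 7 after immediate injection, with the deposited scale as filled points and 95% intervals and the centred scale as open points. The intervals of the 7 genes from Itga1 to Kdr leave out 0 without adjustment. Centring raises every gene by the same amount, so these 7 negative differences move closer to 0.

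The same injection was next compared between days and between injection times, to ask whether the SKM effect at day 7 after immediate injection differed from that at other times. Against day 3 after immediate injection, 0 of 134 genes (0%) passed the test of the difference, with 6 lower (4.48%) and 1 higher (0.746%) at an unadjusted p under 0.05, and after centring 0 (0%) passed, with 5 lower (3.73%) and 1 higher (0.746%) unadjusted. The largest belonged to Myh3, whose SKM minus saline difference was -1.52 at day 7 and 1.51 at day 3, a difference of -3.03 ± 0.88 (limma adjusted p = 0.0939). Myf5 was at -0.51 and 0.48, a difference of -0.997 ± 0.30 (adjusted p = 0.0939). For both genes the difference was negative at day 7 and positive at day 3. Pax7 was at -0.43 and 0.53 (difference -0.96 ± 0.39, adjusted p = 0.717), and Ccn2 at -0.86 and 0.14 (-0.997 ± 0.45, adjusted p = 0.799).

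On the log2 scale Myh3 had a mean of 13.38 ± 2.30 (SD) in SKM and 14.90 ± 1.13 in saline at day 7, and of 13.34 ± 0.57 in SKM and 11.84 ± 1.53 in saline at day 3, against 8.48 ± 1.42 in uninjured muscle (n = 3). The SKM mean of day 7 includes replicates 1 and 2 (436 and 1790), and the other 6 values lay at 17980 to 34720, against a median of 10740 in SKM at day 3. Calls appeared for Myh3 and Myf5 (2 genes, adjusted p from 0.0254 to 0.0478) when 1 of 5 samples was left out, SKM replicate 4 or 8 or saline replicate 4 of day 7, or saline replicate 7 or 9 of day 3. In the other 30 of 35 such fits 0 genes passed, with an adjusted p of up to 0.421 for both genes, and the Myh3 difference was -2.37 without SKM replicate 1 of day 7. With array weights 11 genes passed (8.21%), without Myh3 and Myf5, and by the gene-by-gene method 0 (0%).

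Against delayed injection at day 7, 2 of 134 genes (1.49%) passed the test of the difference, Hgf and Itga1. The SKM effect on Hgf was -0.43 ± 0.24 after immediate injection and 0.78 ± 0.23 after delayed injection, a difference of -1.21 ± 0.33 (adjusted p = 0.0409). Itga1 was at -0.44 ± 0.14 and 0.25 ± 0.14, a difference of -0.70 ± 0.20 (adjusted p = 0.0409). The next were Mmp14, a membrane metalloprotease (-1.25 ± 0.38, adjusted p = 0.0515), Kdr (-0.83 ± 0.26, 0.0515) and Ccn2 (-1.37 ± 0.44, 0.0595).

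Most differences of that comparison lay on 1 side of 0 on the deposited scale. Of the 134 differences 93 were negative with a median of -0.45, and 39 were lower (29.1%) and 1 higher (0.746%) at an unadjusted p under 0.05. After centring the median was -0.06, 0 genes passed (0%), 13 were lower (9.7%) and 18 higher (13.4%) unadjusted, Hgf stood at -0.82 (adjusted p = 0.101) and Itga1 at -0.31 (0.193). The panel medians were 10.36 ± 0.07 in SKM and 10.49 ± 0.12 in saline after immediate injection and 9.76 ± 0.17 in SKM (n = 9) and 9.51 ± 0.18 in saline (n = 10) after delayed injection (SD). Both calls were also lost when any 1 of 13 samples was left out, immediate SKM replicates 1, 2, 3, 5 and 6, immediate saline replicates 2 and 7, delayed SKM replicates 4, 8 and 9 or delayed saline replicates 3, 5 and 9. The count rose in 18 other cases, up to 28 without immediate SKM replicate 7.

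**Figure D5:**
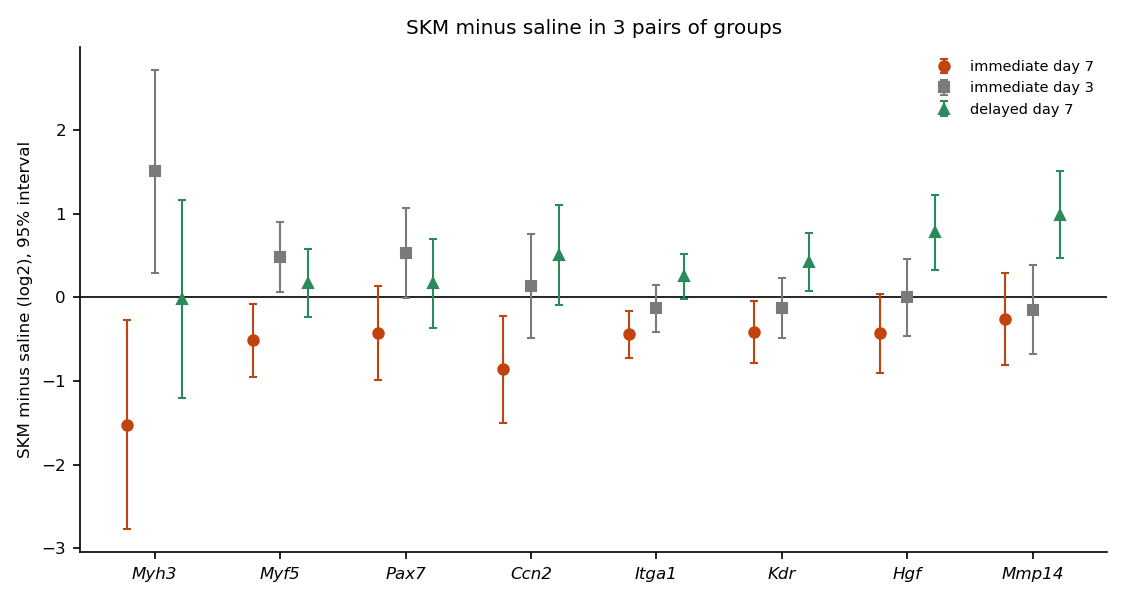
SKM minus saline (log2, with 95% interval) for 8 genes at day 7 and day 3 after immediate injection and at day 7 after delayed injection, on the deposited scale. Myh3 and Myf5 are below 0 at immediate day 7 and above 0 at immediate day 3. The estimates of Hgf and Itga1 are below 0 at immediate day 7 and above 0 at delayed day 7. The intervals of Hgf at immediate day 7 (-0.91 to 0.05) and of Itga1 at delayed day 7 (-0.015 to 0.52) include 0. After centring neither gene passed the test between injection times.

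Both groups differed from uninjured muscle in most of the panel. Limma called 75 genes (56%) in SKM against uninjured, 47 higher (35.1%) and 28 lower (20.9%), and 81 genes (60.4%) in saline against uninjured, 52 higher (38.8%) and 29 lower (21.6%). After centring the counts were 77 (57.5%) in SKM and 83 (61.9%) in saline. The 2 comparisons share the 3 uninjured samples, so they are given side by side only. Myh3 stood at 4.90 ± 0.88 in SKM and 6.42 ± 0.87 in saline above uninjured, Sln at 3.18 ± 0.58 and 3.44 ± 0.57, and Adgre1 at 3.19 ± 0.78 and 2.54 ± 0.77. Acta1 was at -1.53 ± 0.56 in SKM and -1.76 ± 0.55 in saline, and Myod1 at -0.97 ± 0.37 and -1.004 ± 0.37. Without uninjured replicate 2 the count in SKM was 25, and in a fit of SKM and uninjured only it was 26.

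The calls by list stand beside 35.1% of all genes called higher and 20.9% lower in SKM, and 38.8% and 21.6% in saline, and the SKM counts draw on the 75 calls that were 25 without uninjured replicate 2. Matrix proteins had 4 of 5 genes higher in SKM and 4 of 5 in saline, with medians of 1.70 and 2.40 against uninjured. Matrix enzymes had 9 of 13 higher in SKM and 9 of 13 in saline. Adult contractile genes had 7 of 10 lower in SKM and 6 of 10 in saline, with medians of -1.39 and -1.52. Neuromuscular junction genes had 4 of 5 higher in SKM and 5 of 5 in saline, with medians of 0.76 and 1.33. Genes of insulin, AKT and mTOR signalling had 6 of 12 lower in SKM and 7 of 12 in saline, with 1 higher in each. Itga1 was at 0.24 ± 0.20 in SKM (adjusted p = 0.318) and 0.68 ± 0.20 in saline (adjusted p = 0.00259), and Ccn2 at 0.24 ± 0.45 (0.661) and 1.10 ± 0.44 (0.024).

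The authors' deposited table lists 13 genes for SKM against saline at day 7 after immediate injection, all with negative log2 fold changes. In that table Itga1 is at -0.48, Nrg1 at -0.63, Myf5 at -0.48, Pax7 at -0.47, Tnc at -0.86 and Cxcl1 at -2.01. The log2 ratios of group means computed from the values differ from these by at most 0.0588. The authors' p and q stand in a separate list, for 9 of the 13 genes, under a heading that names SKM against SBI. There Itga1 has a p of 0.001 and the lowest q, 0.23. The q is 0.32 for Nrg1, 0.44 for Cxcl1 and 0.49 each for Myf5, Pax7 and Tnc. For Cxcl1 the difference of log2 means was -0.64 ± 0.93, with values of 21.6 to 144 in SKM (median 26.8) and 24.3 to 1162 in saline (median 35.9).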

How the data were processed

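RNA of rat pubocaudalis muscle was measured on a custom nCounter panel of 134 probes in 127 samples of 18 groups. The deposited values are the authors' normalized signal on a linear scale, and no source used here gives their scaling or software. Every one of the 16829 values above the floor of 0.1 was a whole multiple (within 0.05 of a count) of a step particular to its sample, so counts and totals were recovered, and 189 values at the floor stand for 0 counts. The value table holds no gene names. They were assigned by matching values to the authors' deposited fold changes, with the columns for immediate injection at day 7 left out of the matching, and 133 of 134 names were the same in both assignments tried, Ccn2 being the exception. The fold changes, p-values and q-values that the authors deposited are quoted as theirs.

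Differences were tested with limma 3.58.1 in R 4.3.3 on log2(value + 1), with 1 mean per group, all 18 groups in 1 fit, Benjamini-Hochberg adjustment over the 134 genes and a threshold of 0.05. Differences on this scale understate the change of low genes. Of the samples, 3 pairs with identical counts, all outside the compared groups, were averaged, which left 124. Sample measures were compared with exact two-sided permutation tests (scipy 1.17.1). The fit was also run on simulated data with noise drawn independently for each gene and sample. Such data hold no samples that stand apart, and no result here rests on them. Named genes are the 25 of smallest p, the gene of smallest p in each of 16 lists, the 5 of smallest p in each difference of SKM effects, and Pax7, Myod1, Myog and Myh3. Other genes in the text are members of a list or marker set and were chosen after their values were seen. The members, lists and tests were chosen with earlier results of these data known. Alternatives changed the scale, pseudocount, filter, samples and weights.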

Additional observations from a re-analysis of the deposited data

Results flagged for a closer look

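Among 70 sets of samples tested, 1 sample lay far from the rest of its group in 18, where chance gives about 1 in 20. SKM replicate 7 accounted for 6 of them. It was high for Tpm4 (16110, group median 7770), Nfkb1 (6802, median 2233) and Mmp14 (15580, median 7312). It was low for Grb10 (2290, median 4436), Akt2 (2199, median 5604) and Actn2 (10100, median 53400). SKM replicate 8 was high for Angpt2 (663, median 480.7), and SKM replicate 1 had 5 probes at 0 counts.

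Saline replicate 7 was high for Kdr (677.4, median 427.1), Il6 (775.7, median 67.0) and Nfkb1 (7569, median 2443) and low for Actn2 (15540, median 62880). Saline replicate 1 was low for Itga1 (585, median 825.3), Angpt2 (382.1, median 639.2) and Foxo3 (740.8, median 933.1). Saline replicate 4 was low for Myog (1612, median 3562). Saline replicate 6 was at the floor of 0.1 for Gata3 (median 25.4) and had 6 probes at 0 counts.

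The SKM effect differed between immediate and delayed injection at day 7 for Hgf (-1.21) and Itga1 (-0.70) by limma's test of the difference, each with an adjusted p of 0.0409. After centring neither passed (adjusted p 0.101 for Hgf and 0.193 for Itga1), and both calls were lost in 13 of 36 fits that left out 1 sample.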

How the results depend on the processing

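The count of genes called between SKM and saline was 0 in each of the 17 fits that left out 1 sample, and it was 4 with array weights, 2 with gene-by-gene array weights and 2 with array weights in the compared groups only. For day 7 minus day 3 it was 11 with array weights, 6 with array weights on centred values and 1 with voom weights, and 0 to 2 when 1 sample was left out. For immediate minus delayed it was 0 after centring, 0 with each sample scaled to its total, 0 with voom weights, 1 in the compared groups only, 4 with a pseudocount of 10, 39 with array weights, 43 with array weights on centred values and 37 gene by gene, and 0 to 28 when 1 sample was left out. Against uninjured, the SKM count was 26 in the compared groups only and 25 to 79 with 1 sample left out, and the saline count was 54 to 85. The panel median difference was -0.165 by mean log2 and -0.154 to -0.0975 with 1 sample left out, the total count difference -20180 to 135640 and that of probes at 0 -0.317 to 0.875. Signs turned for 4 named genes. Nfkb1 ran from -0.33 to 0.049 and Actn2 from -0.50 to 0.0046 with 1 sample left out, and Actn2 was 0.049 with array weights on centred values. Myod1 was -0.37 with array weights, -0.22 on centred values, -0.30 gene by gene, -0.32 in the compared groups only, and -0.27 to 0.22 with 1 sample left out. Myog was 0.042 after centring, 0.037 with each sample scaled to its total, 0.0017 without number 7 of both groups, 0.15 without numbers 1 and 7 of SKM and 6 and 7 of saline, and -0.40 to 0.12 with 1 sample left out. The cause was not tested. With the replicate block in the compared groups 0 genes were called (8 at an unadjusted p under 0.05, smallest adjusted p 0.336). Same-numbered samples correlated above 0.1 in 3 of 8 pairs (-0.67 to 0.957, the highest for replicate 7). The labels do not say what the numbers stand for, and these correlations cannot decide whether the numbers pair the samples. Fits that left out samples standing apart, array weights on centred values or gene by gene, and weights in the compared groups only were chosen after seeing the data. The default array weights did not reach their tolerance. The planned edgeR and DESeq2 fits were not run. Low counts limit Cxcr2, Gata3 and Nos2.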
